A study of Mus musculus with 4 samples.

Results

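The genes described are the 80 protein-coding genes of the mouse whose symbols name a protein of the cytosolic ribosome, out of 54232 genes in the count table. Membership was by symbol: Rpl or Rps followed by a number with an optional suffix a, x or l, together with Rplp0, Rplp1, Rplp2 and Rpsa. Processed pseudogenes (symbols ending in -ps and a number), the Rps6k kinases and 3 further rows annotated as pseudogenes (Rps4l, Rpl32l and Rpl6l) were left out. The 80 genes comprised 49 of the large subunit and 31 of the small subunit. Of these, 4 (Rpl39l, Rpl10l, Rps27l and Rpl3l) are paralogs of another member, here called the parent gene, and the other 76 are called conserved members. The genes lie on 19 chromosomes, with 4 on X (Rpl39, Rpl10, Rps4x and Rpl36a).

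Whole testes of B6D2F1 mice at postnatal day 17 were analysed by RNA sequencing that keeps the strand of each transcript. The design compared 2 control libraries (genotype Dis3 WT, here WT) with 2 libraries of a conditional Dis3 knockout (genotype Dis3 KO, here KO), in order to find genes whose expression differs. The Dis3 protein is one of the nucleases of the RNA exosome, a complex that removes and processes RNA starting at the 3′ end. The Cre driver, and so the cells in which Dis3 was deleted, is not given in the sources used here, and these sources do not state whether each library represents a different animal. The p-values of all tests therefore measure the spread between these libraries, which may be technical.

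A ribosome is built of ribosomal RNA and a set of ribosomal proteins needed in equal numbers, and the genes of these proteins are among the most uniformly expressed of all cells. Their mRNAs start with a run of pyrimidines (the terminal oligopyrimidine, or TOP, tract), by which their translation is regulated together. In the testis, genes on the X chromosome are silenced during meiosis, and autosomal paralogs such as Rpl10l and Rpl39l, which arose as retrocopies of X-linked genes, are expressed in male germ cells. Rpl10l and Rpl39l are known to be needed for male fertility in mice.

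The KO libraries were less deeply sequenced, with 17663416 and 19255782 gene reads, than the WT libraries, with 31031920 and 40329170. Levels are given as CPM, the reads of a gene on a common library scale, after TMM scaling, which sets libraries equal over most genes. Beside a log2 fold change (KO over WT), ± gives its SE. Levels compared between genes are per kilobase of exon (RPKM). Dis3 itself stood at 80.0 and 80.4 CPM in WT and at 39.4 and 42.8 CPM in KO (log2 fold change -0.96 ± 0.0729 SE, edgeR quasi-likelihood adjusted p = 2.34e-09), and the sources used here do not name the deleted exons. The summed level of 18 marker genes of pachytene spermatocytes, germ cells in the long stage of meiotic prophase, was 5594 and 5752 CPM in WT and 3753 and 3395 CPM in KO. That of 24 Sertoli cell markers was 9760 and 9543 CPM in WT and 10618 and 10297 CPM in KO, and no marker on either list was at 0 reads. In whole-testis RNA, fewer cells of a type and less RNA per cell cannot be told apart.

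The mRNA start is shown for several members, because the TOP tract is the feature by which these genes are recognised as a group. Each line holds the 10 bases before and the 15 bases from a RefSeq transcript start (GRCm38.p6), 5′ to 3′, with the longest pyrimidine run touching this window in capitals. The windows lie at chr3:90213634-90213658 (Rps27, minus strand), chr4:86857353-86857377 (Rps6, minus), chr11:114668570-114668594 (Rpl38, plus), chr7:4792955-4792979 (Rpl28, plus), chr7:109519185-109519209 (Rpl27a, plus) and chr7:3704031-3704055 (Rps9, plus). Those of the paralogs lie at chr12:66284387-66284411 (Rpl10l, minus) and chr16:10170218-10170242 (Rpl39l, plus).
Rps27: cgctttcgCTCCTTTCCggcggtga
Rps6: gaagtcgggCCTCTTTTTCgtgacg
Rpl38: aagcctcgTTCTTTCCCCgttctct
Rpl28: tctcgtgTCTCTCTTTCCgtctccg
Rpl27a: cgtgagCTCCTCCCTTTTCCCTTTC
Rps9: cttgTCTCTCTTTgtctcgggcctg
Rpl10l: CCTCCattttgcggctggcggtggg
Rpl39l: aggCCTTTCCggatttccggtggtc
In the first 6 of these genes a run of 9 to 20 pyrimidines covers the start. In Rpl10l the longest run has 5 bases and in Rpl39l 7. Among the 60 members with a RefSeq promoter, a pyrimidine run of 8 or more touched the 10 bases on either side of the start in 26 (43.3%), against 13.3% of 16512 protein-coding genes. A C was the first base of the transcript in 31.7% of the members and in 13.9% of all.

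The promoters also differed in the share that held a short ETS motif, the site of a family of transcription factors. CCGGAAG or its complement CTTCCGG was found in 24 of 60 member promoters (40%) and in 12.3% of all, in a window of 250 bases before to 50 after the start. AAGATGGC or GCCATCTT, a YY1 motif, was found in 6.67% against 3.28%, and TATAAA or TTTATA in 8.33% against 12.9%. Both strands were searched, and matches of the motifs and of the pyrimidine run were allowed to overlap. Rps6 and Rpl39l are shown as examples that hold the ETS motif, with 150 bases before and 15 from the start (chr4:86857353-86857517, minus strand, and chr16:10170078-10170242, plus strand). Capitals mark each match of the ETS motif and, in Rps6, the pyrimidine run.
Rps6 promoter: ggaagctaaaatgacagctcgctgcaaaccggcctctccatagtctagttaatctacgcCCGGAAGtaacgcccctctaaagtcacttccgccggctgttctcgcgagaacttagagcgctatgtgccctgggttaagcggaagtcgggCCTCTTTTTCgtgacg
Rpl39l promoter: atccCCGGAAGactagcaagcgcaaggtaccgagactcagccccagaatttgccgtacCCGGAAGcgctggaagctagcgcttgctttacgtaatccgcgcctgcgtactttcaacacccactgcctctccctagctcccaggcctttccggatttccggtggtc
Rps6 combines 1 motif with a TOP-like start, whereas Rpl39l holds 2 motifs and a run of 7. A match describes the letters of a promoter and does not show that a factor binds there.

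Most ribosomal protein mRNAs were lower in the KO testes. All 80 genes passed the filter on low counts, and 59 were called lower, 0 higher and 21 neither (edgeR quasi-likelihood test with Benjamini-Hochberg adjustment over all genes tested, threshold 0.05). Of all 25076 genes tested, 20.3% were called lower and 11.6% higher, and of the 10722 genes at a mean of 10 CPM or more 42.1% were called lower and 9.03% higher. At that level stood 75 members, of which 59 were called lower. The median log2 fold change over the 80 genes was -0.38, against 0.05 over all genes tested and -0.16 over those at 10 CPM or more. Well-expressed genes were thus often called lower in general, and the members were called at a higher share than these, a difference that was not itself tested.

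The sizes of the change varied between members by more than the typical SE of a single gene. The 59 called falls ran from -0.19 to -0.85 on the log2 scale, that is from 87.7% to 55.6% of the WT level, with a median of 74.5%. Small changes are less easily called, so this range leaves them out. For the 75 genes at 10 CPM or more the middle 50% of log2 fold changes lay between -0.48 and -0.25, while the median SE of a single gene was 0.0695. The large subunit (36 of 49 called lower, median -0.38) and the small subunit (23 of 31, median -0.36) had similar shares and medians. In 70 of the 80 genes both KO libraries lay below both WT libraries, in 3 above, and in 7 the groups overlapped, where 32.7% of all genes tested had both KO libraries below and 35.6% above (58.3% and 19.9% at 10 CPM or more).

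**Figure D1:**
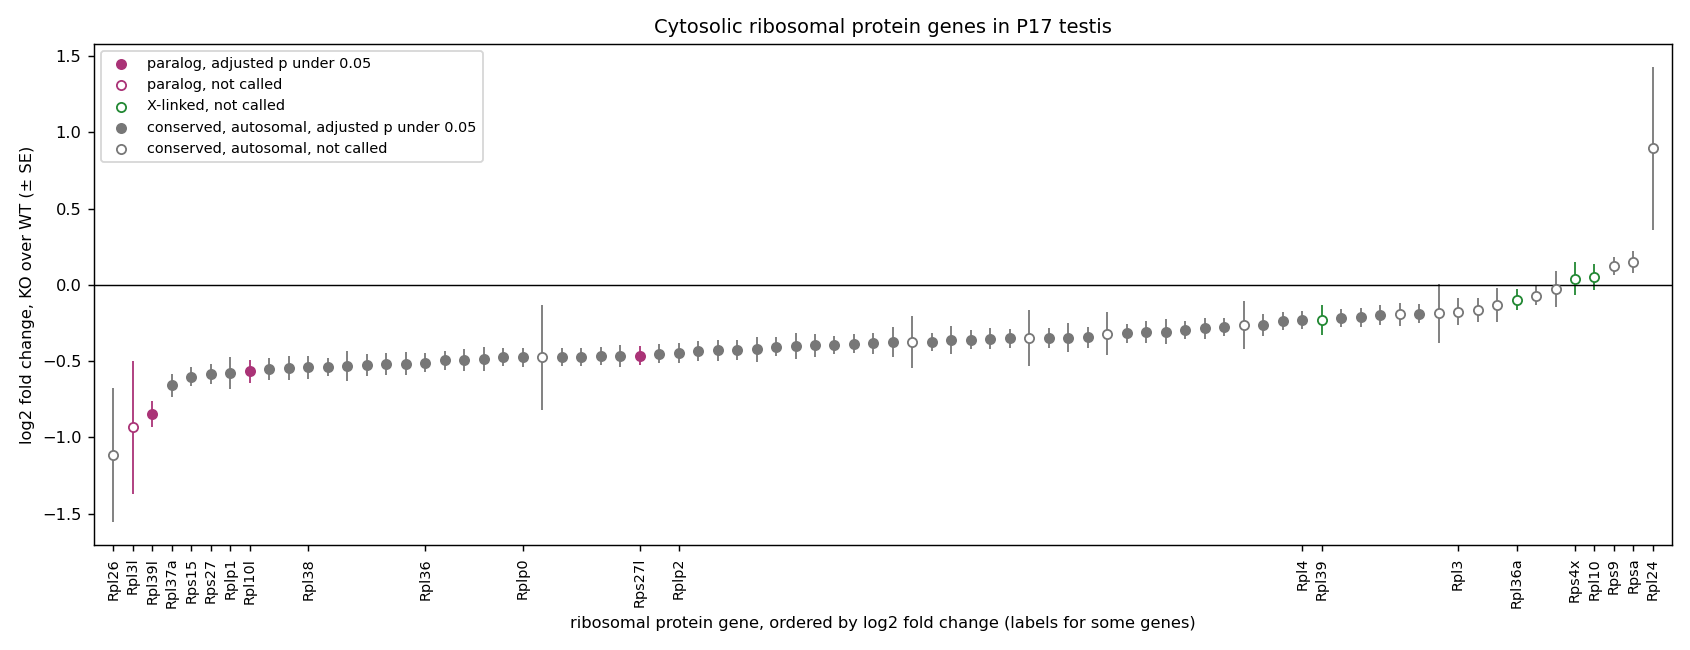
Log2 fold change (KO over WT, y axis, ± SE from edgeR) of each of the 80 ribosomal protein genes (x axis, in order of the change, with the names of some); colours mark conserved autosomal genes, X-linked genes and paralogs, and filled points passed an adjusted p of 0.05. The 59 filled points lie between -0.85 and -0.19, and the 4 X-linked genes are open.

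The share of all gene reads that fell on the 80 genes was 1.17% and 1.19% in the WT libraries and 0.995% and 1.03% in the KO libraries. The KO values lay below the WT values, by 0.172 percentage points on average (two-sided exact permutation test, p = 0.333, the smallest that 2 against 2 libraries allow). Large-subunit genes took 0.765% ± 0.00745 (SD, n = 2) of the reads in WT and 0.646% ± 0.0156 in KO, and small-subunit genes 0.419% ± 0.00644 and 0.366% ± 0.00927. The ratio of KO to WT was 0.844 for the large and 0.874 for the small subunit, and 0.855 for all 80 genes. These shares rest on reads as counted, without TMM scaling, so their ratios are not on the scale of the fold changes above. The annotated -ps pseudogenes of this family took 0.0408% ± 0.00088 of the reads in WT and 0.0345% ± 0.000791 in KO. Of 294 such pseudogenes 60 could be tested and 11 were called lower, 0 higher.

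The 4 conserved members with the highest level per length were called lower in KO. Rpl36, a protein of the large subunit, was the highest conserved member by this measure. It stood at 863 and 893 RPKM in WT and 638 and 595 in KO (log2 fold change -0.51 ± 0.0605, edgeR adjusted p = 8.21e-07). Rpl4, another large-subunit protein, stood at 459 and 442 RPKM in WT and 395 and 373 in KO, and had the highest level before length was taken into account (921, 886, 794 and 749 CPM). Its fall was small (-0.23 ± 0.0617, adjusted p = 0.00637). Rps15, a small-subunit protein, stood at 421 and 474 RPKM in WT and 294 and 297 in KO. Rpl38, of the large subunit, stood at 410 and 396 RPKM in WT and 306 and 248 in KO (log2 fold change -0.54 ± 0.0774). In all 4 genes the groups did not overlap.

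Conserved members spanned a wide range of levels per length, with a WT median of 66.7 RPKM and quartiles of 22.5 and 128 RPKM. This range also reflects the length of the merged exons, which was 404 bases for Rpl36 and 6256 for Rps24. In WT, Rpl36 at 349 and 361 CPM had 863 and 893 RPKM, while Rps24 at 317 and 320 CPM had 50.7 and 51.1 RPKM. The lowest were Rpl24 (0.36 and 0.434 RPKM in WT, 0.69 and 0.799 in KO), Rpl13a, Rps2 and Rpl23a (2.07 to 10.03 RPKM over all libraries), and none of these 4 was called. Rpl24 rests on 11 and 17 reads in WT and 13 and 17 in KO. Its log2 fold change of 0.89 ± 0.536 (adjusted p = 0.206) is the highest of all members, at a level where few reads decide it. Ribosomal proteins have many near-identical processed copies in the genome, and the recorded counting command holds no option to keep reads that map to several places. Levels per length of members with such copies are therefore uncertain, and the part that copies play in these 4 values was not tested.

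The largest called falls after Rpl39l, described below with its parent gene, were in 3 conserved members of either subunit. Rpl37a, a small zinc-binding protein of the large subunit, stood at 92.7 and 94.7 CPM in WT and 54.5 and 64.1 in KO (-0.66 ± 0.0741, edgeR adjusted p = 4.07e-07). Rps15 stood at 265 and 299 CPM in WT and 185 and 187 in KO (-0.60 ± 0.0638). Rps27, a zinc-binding protein of the small subunit, stood at 121 and 119 CPM in WT and 78.3 and 81.6 in KO (-0.58 ± 0.0634). The WT values exceeded every KO value in each of these genes.

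The proteins of the ribosomal stalk, the lateral arm of the large subunit that recruits elongation factors, fell together. Rplp0, its base, stood at 277 and 277 CPM in WT and 209 and 190 in KO (-0.47 ± 0.0613, adjusted p = 2.69e-06). Rplp1 stood at 119 and 139 CPM in WT and 76.6 and 95.7 in KO (-0.58 ± 0.105), and Rplp2 at 289 and 274 CPM in WT and 218 and 195 in KO (-0.45 ± 0.0638). The stalk genes thus fell by similar amounts, with no overlap between groups.

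Rpsa and Rps9 stood at or above the WT level in KO. Rpsa encodes a small-subunit protein also known as a laminin receptor. It stood at 59.6 and 64.5 CPM in WT and 71.0 and 66.8 in KO (log2 fold change 0.15 ± 0.0715, adjusted p = 0.113). Rps9, a small-subunit protein that binds early to the ribosomal RNA and is named here because it is among the few genes above zero, stood at 173 and 164 CPM in WT and 189 and 179 in KO (0.12 ± 0.0603, adjusted p = 0.119). In both genes the KO libraries lay above the WT libraries, yet neither change passed the threshold. With a filter of 1 CPM in 2 libraries the adjusted p of Rpsa was 0.0149, and with background subtracted and TMM scaling redone it was 0.00617.

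Rpl26 and Rpl3l had larger fold changes than Rpl39l but were not called. Rpl26, a large-subunit protein, stood at 133 and 216 CPM in WT and 64.0 and 96.8 in KO (-1.12 ± 0.441, adjusted p = 0.213). The WT libraries differed from each other by more than 1.3 times for Rpl26, Rpl3l, Rpl17 and Rpl15. None of these 4 genes was called.

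A second fit asked how each gene moved relative to the family, by taking the summed reads of the 76 conserved members as library size. Of the 80 genes 14 were then higher and 7 lower, while 44% of all genes tested were higher and 4.34% lower on this scale. Because the conserved members set the scale, the contrast with all genes follows from it and is not a result. Genes called lower than the family were Rpl39l (-0.47 ± 0.0838, adjusted p = 0.000137), Rpl37a (-0.28), Rps15 (-0.23), Rps27 (-0.21), Rpl10l (-0.19), Rpl37 (-0.18) and Rpl13 (-0.16). Genes called higher than the family were led by Rpsa (0.52 ± 0.0683, adjusted p = 4.22e-06) and Rps9 (0.50 ± 0.0597, adjusted p = 1.58e-06), followed by Rpl10 and Rps4x of the X chromosome. Of the 14, 11 encode small-subunit proteins and 3 large-subunit proteins. The other 59 members were not told apart from the summed family at this precision.

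None of the 4 X-linked members was called lower. Relative to the family 3 of them were higher, as were 313 of 360 X-linked protein-coding genes and 5546 of all 10722 genes at 10 CPM or more, so that this count is not particular to the members. Their summed share of gene reads was 0.0149% ± 0.000213 (SD, n = 2) in WT and 0.0158% ± 0.000994 in KO. On the common library scale 6.39% of these 360 X-linked genes were called lower and 17.5% higher. Rpl10, whose protein completes the large subunit in the cytoplasm, stood at 34.5 and 34.5 CPM in WT and 33.5 and 38.1 in KO. Rps4x, a small-subunit protein, stood at 20.0 and 21.2 CPM in WT and 18.9 and 23.5 in KO. In both genes the groups overlapped, and the small log2 fold changes of 0.05 ± 0.0862 and 0.04 ± 0.109 turned negative under other settings, among them scaling to Sertoli cell genes (-0.06 and -0.07).

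The other X-linked members were slightly lower. Rpl36a, of the large subunit, stood at 73.1 and 76.1 CPM in WT and 72.0 and 67.6 in KO (-0.10 ± 0.0684, adjusted p = 0.29). It turned to 0.04 with background subtracted and TMM redone, and with scaling to Sertoli cell genes it was called lower (-0.21, adjusted p = 0.0261). Rpl39 encodes a small protein that lines the exit tunnel of the large subunit. It stood at 26.5 and 27.6 CPM in WT and 21.4 and 24.7 in KO (-0.23 ± 0.0978, adjusted p = 0.0763). Rpl39 lay close to the threshold and was called lower without a filter (adjusted p = 0.0341), with a replicate block (0.0484), with Sertoli scaling (0.00966) and without KO replicate 2 (-0.39, adjusted p = 0.00975). Over all settings tried its adjusted p ran up to 0.498. Relative to the family, Rpl10 (0.43 ± 0.0855, adjusted p = 0.000445), Rps4x (0.42 ± 0.109) and Rpl36a (0.28 ± 0.0658) were higher, and Rpl39 was not called (0.15 ± 0.097).

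The coding sequences of paralogs and parents are shown because reads within them can be told apart only at these differences. Counted exons are longer (831 bases for Rpl39l and 1434 for Rpl39), and reads in the untranslated parts are assigned by sequence not shown. Rpl39l (chr16:10170226-10174911, plus strand) and Rpl39 (chrX:37082520-37085402, minus strand) have coding sequences of 156 bases each. Capitals mark the 23 bases that differ, and the sequences were read from the GENCODE transcripts.
Rpl39l: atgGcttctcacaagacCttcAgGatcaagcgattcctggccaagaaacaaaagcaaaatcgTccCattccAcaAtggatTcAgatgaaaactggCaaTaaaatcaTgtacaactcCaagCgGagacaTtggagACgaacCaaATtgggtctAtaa
Rpl39: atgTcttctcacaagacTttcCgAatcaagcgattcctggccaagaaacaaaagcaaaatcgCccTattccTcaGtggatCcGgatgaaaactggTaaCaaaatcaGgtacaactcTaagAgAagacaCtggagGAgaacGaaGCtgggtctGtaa
The identity is 85.3%, and the longest run shared without a difference has 38 bases. Rps27l (chr9:66946086-66949516, plus strand) and Rps27 (chr3:90212522-90213651, minus strand) differ at 61 of 255 bases, with 76.1% identity and a longest shared run of 11 bases.
Rps27l: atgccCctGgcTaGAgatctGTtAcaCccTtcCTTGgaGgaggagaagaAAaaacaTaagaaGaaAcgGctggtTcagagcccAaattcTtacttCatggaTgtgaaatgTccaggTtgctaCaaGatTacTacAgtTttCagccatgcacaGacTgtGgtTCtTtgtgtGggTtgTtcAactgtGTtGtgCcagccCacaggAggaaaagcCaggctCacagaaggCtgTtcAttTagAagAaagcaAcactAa
Rps27: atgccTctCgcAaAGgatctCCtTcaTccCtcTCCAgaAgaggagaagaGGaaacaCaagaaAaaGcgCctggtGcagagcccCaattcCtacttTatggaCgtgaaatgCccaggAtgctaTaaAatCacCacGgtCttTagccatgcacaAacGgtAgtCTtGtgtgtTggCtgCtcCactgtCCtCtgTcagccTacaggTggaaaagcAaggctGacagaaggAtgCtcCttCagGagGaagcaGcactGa
Rpl10l (chr12:66283379-66284401, minus strand) and Rpl10 (chrX:74270812-74273135, plus strand) differ at 98 of 645 bases (84.8% identity, longest shared run 23 bases), of which the first 150 are shown.
Rpl10l: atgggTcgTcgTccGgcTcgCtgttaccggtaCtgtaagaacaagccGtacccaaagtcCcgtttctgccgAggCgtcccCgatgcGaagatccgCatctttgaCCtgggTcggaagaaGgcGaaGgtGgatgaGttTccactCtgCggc
Rpl10: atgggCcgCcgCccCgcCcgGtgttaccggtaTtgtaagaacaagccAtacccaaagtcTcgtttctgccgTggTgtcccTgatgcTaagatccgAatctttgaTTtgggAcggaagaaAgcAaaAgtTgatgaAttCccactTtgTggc
Differences are spread over each sequence. Rpl3l, the paralog of Rpl3 that is known from striated muscle, has 73.2% identity to its parent over the coding sequence.

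Rpl39l was lower in KO, also relative to its X-linked parent. It stood at 45.5 and 49.8 CPM in WT and 25.5 and 27.5 in KO. Its log2 fold change of -0.85 ± 0.0859 was the largest fall among called members (edgeR adjusted p = 9.85e-08). The ratio of Rpl39l to Rpl39 in CPM was 1.72 and 1.81 in WT and 1.19 and 1.11 in KO. The KO ratios lay below both WT ratios, with a mean difference of -0.61 on the log2 scale (two-sided exact permutation test, p = 0.333, the smallest possible here). Per length, Rpl39l exceeded Rpl39 by 2.96 and 3.12 times in WT and by 2.06 and 1.92 times in KO. These values rest on merged exons of 831 and 1434 bases, and levels per length are uncertain as described above.

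Rpl10l, the autosomal partner of Rpl10, fell while its parent was not called. It stood at 71.8 and 78.5 CPM in WT and 47.7 and 53.7 in KO (-0.57 ± 0.0762, adjusted p = 4.37e-06). The ratio of Rpl10l to Rpl10 was 2.08 and 2.27 in WT and 1.42 and 1.41 in KO, a mean difference of -0.62 on the log2 scale without overlap (exact permutation p = 0.333). Per length the ratio was 4.17 and 4.56 in WT and 2.85 and 2.83 in KO. The merged exons have 1023 bases in Rpl10l and 2053 in Rpl10, so the size of this ratio is uncertain too. The comparison of WT with KO does not depend on these lengths.

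Rps27l, whose parent Rps27 is autosomal, fell by an amount like that of its parent. It stood at 179 and 198 CPM in WT and 139 and 134 in KO (-0.46 ± 0.0631, adjusted p = 5.12e-06), and Rps27 fell too. Their ratio was 1.48 and 1.66 in WT and 1.78 and 1.64 in KO, so that the groups overlapped (mean difference 0.12 on the log2 scale, exact permutation p = 0.667). Rpl3l was near the limit of detection, with 43 and 42 reads in WT and 8 and 18 in KO (-0.93 ± 0.437, adjusted p = 0.104). Its ratio to Rpl3 was 0.0456 and 0.0317 in WT and 0.0151 and 0.0289 in KO (mean difference -0.86, exact permutation p = 0.333), and the difference grew to -1.71 when background was subtracted. Leaving out 1 library moved it from -0.39 (without KO replicate 1) to -1.33 (without KO replicate 2), and the fold change of Rpl3l from -0.56 to -1.58. Rpl3, a large-subunit protein near the catalytic centre, stood at 31.8 and 34.8 CPM in WT and 29.0 and 30.1 in KO (-0.17 ± 0.0881, adjusted p = 0.132). These are 4 ratios in all, and with the smallest p of 0.333 none could pass a threshold before or after adjustment.

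**Figure D2:**
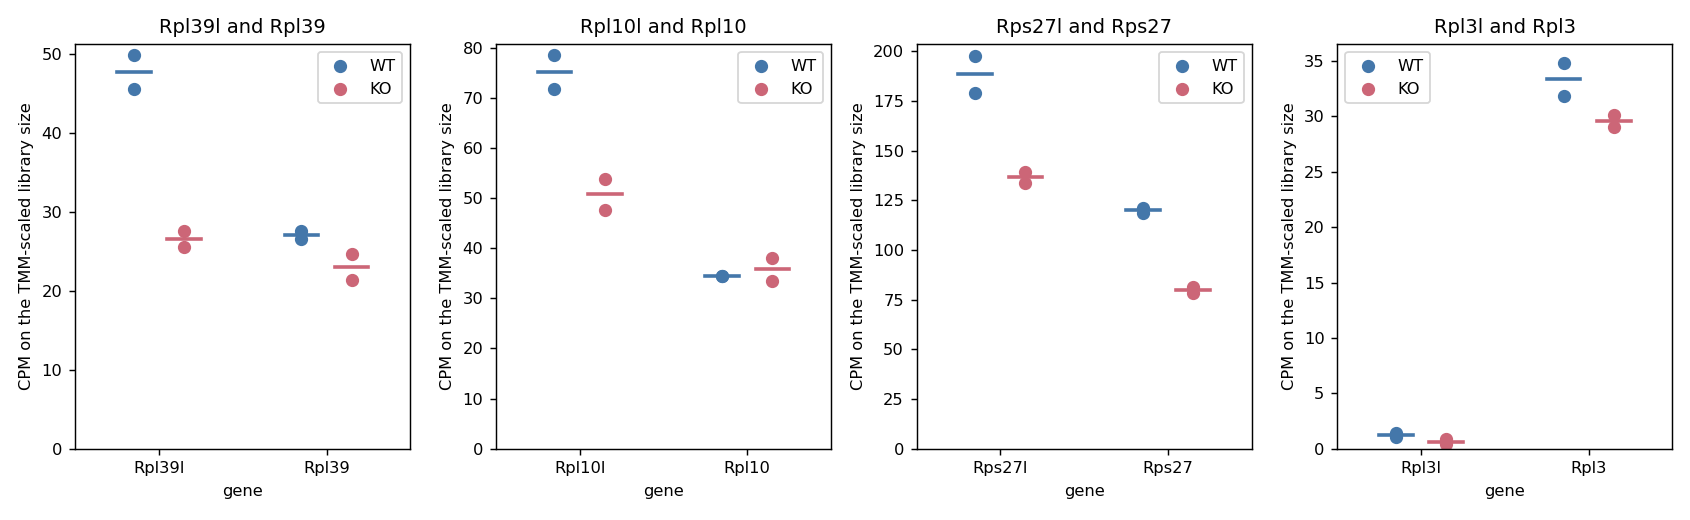
Level in CPM (y axis, from 0) of each paralog and its parent gene (x axis) in the 2 WT and 2 KO libraries (points) with the group mean (lines). Rpl39l and Rpl10l fall from WT to KO while Rpl10 overlaps between groups, and Rps27l and Rps27 fall together.

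Beside the paralogs, the testis cell markers moved as follows. Of 18 pachytene spermatocyte markers 16 were called lower and 0 higher, with a median log2 fold change of -0.78, and of 18 early meiotic prophase markers 17 were called lower, with a median of -0.41. The summed early meiotic level was 5068 and 5212 CPM in WT and 3714 and 3671 in KO. Of 24 Sertoli cell markers 6 were called higher and 0 lower (median 0.14), and of 10 macrophage markers 10 were called higher (median 0.69). Of 10 markers of differentiating spermatogonia, the germ cells before meiosis, 5 were called lower and 1 higher (median -0.30). Their summed level was 950.1 and 1003 CPM in WT and 721 and 732 in KO. Of 11 markers of undifferentiated spermatogonia 2 were called lower and 0 higher (median -0.15). Of 9 Leydig cell markers 3 were called lower and 2 higher (median -0.14). The 3 testable red blood cell markers were all called lower (median -1.42), at a summed 10.7 and 13.5 CPM in WT and 5.31 and 4.65 in KO. The ribosomal protein median of -0.38 lay between the pachytene and Sertoli medians, and the early meiotic median (-0.41) was the nearest of these marker lists. The value of Rpl39l (-0.85) was near the pachytene median, while those of Rpl10l (-0.57) and Rps27l (-0.46) were further from it. Rpl3l, with few reads, stood at -0.93. Of 6 testable spermatid markers 2 were called lower and 0 higher (median -0.11). The part of cell make-up in the ribosomal protein values was not tested.

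**Figure D3:**
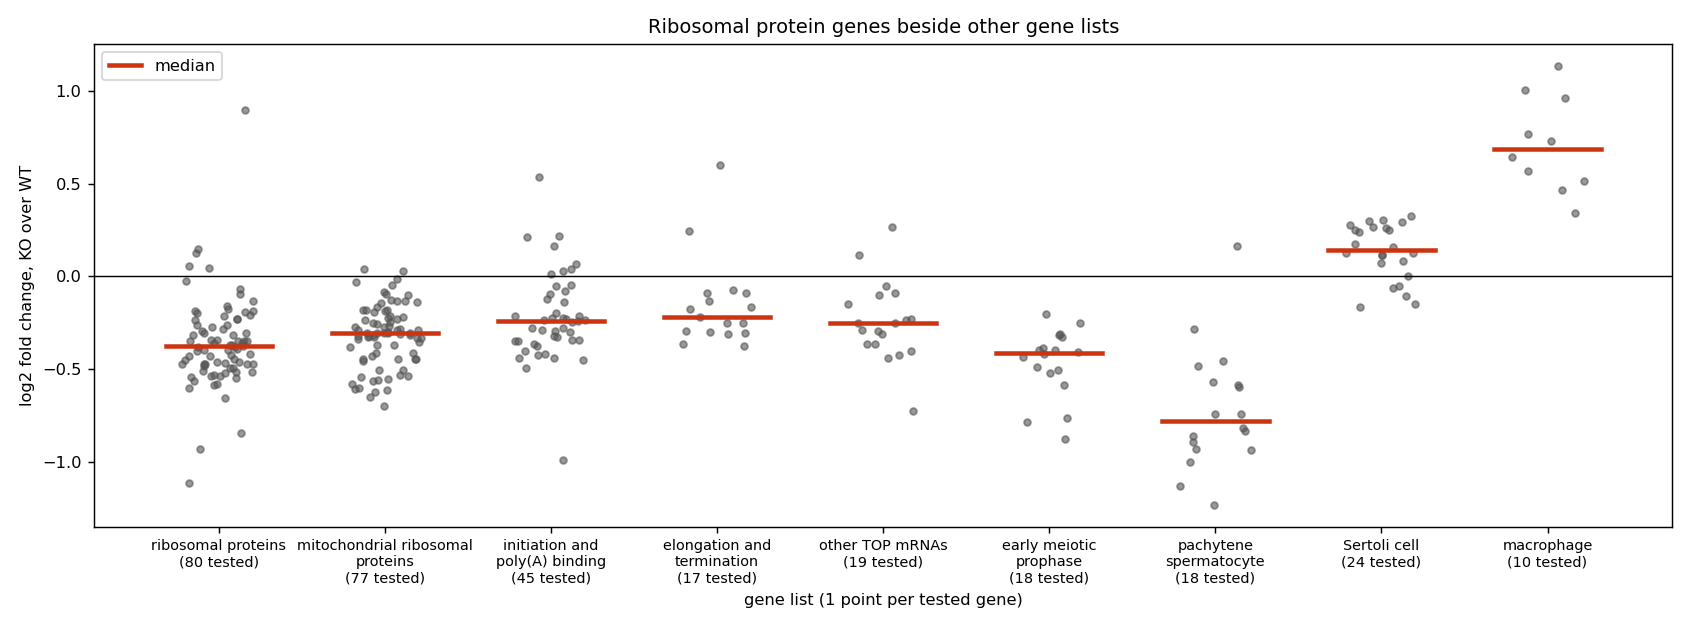
Log2 fold change (KO over WT, y axis) of every tested gene (points) in the ribosomal protein family and 8 other lists (x axis), with the list median as a line; points are spread sideways for legibility. The ribosomal protein median is -0.38, that of mitochondrial ribosomal proteins -0.31, of pachytene markers -0.78 and of Sertoli markers 0.14.

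Other proteins of the cytosolic ribosome, whose symbols do not follow the naming rule, were mostly lower too. Of 8 genes 7 could be tested and 5 were called lower, 0 higher. Rack1, a scaffold on the small subunit, stood at 413 and 438 CPM in WT and 299.7 and 327 in KO (-0.44 ± 0.0624, edgeR adjusted p = 8.92e-06). Fau, which encodes a ubiquitin-like protein fused to Rps30, had a log2 fold change of -0.41 ± 0.0666. Rpl22l1, a paralog of Rpl22, had -0.55 ± 0.107, and Rps3a1 of the small subunit -0.28 ± 0.0664. Rpl36al, the autosomal paralog of Rpl36a (-0.33 ± 0.207), and Rpl7l1, a paralog of Rpl7 (-0.06 ± 0.077, and 0.06 with background subtracted and TMM redone), were not called. Rps27rt had 1 read in each library.

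Among translation factors, 10 of 17 elongation and termination factors were called lower and 0 higher (median -0.22). Eef1a1, which delivers tRNA to the ribosome, stood at 2023 and 2272 CPM in WT and 1613 and 1725 in KO (-0.36 ± 0.0692). Eif5a, which helps stalled ribosomes form peptide bonds, had a log2 fold change of -0.38 ± 0.0633, and Eef1g -0.31 ± 0.0761. Of 45 initiation and poly(A)-binding factors 30 were called lower and 1 higher (median -0.24). Pabpc2, a poly(A)-binding protein of the testis, stood at 251 and 235 CPM in WT and 137 and 108 in KO (-0.99 ± 0.0921), Eif3m, a subunit of eIF3, had -0.50 ± 0.0667, and Eif1, which guides start codon choice, -0.41 ± 0.0595.

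Of 19 other mRNAs known to start with a TOP tract, which include several of the factors above, 14 were called lower and 1 higher (median -0.25). Pabpc1, the main cytoplasmic poly(A)-binding protein, stood at 4287 and 4490 CPM in WT and 3465 and 3063 in KO (-0.43 ± 0.0718). The 1 rise was Vim, a filament protein that is also on the Sertoli list (0.27 ± 0.0593), and it is named because it was the exception. Of the members with a RefSeq promoter, 26 had a pyrimidine run of 8 or more near the start, and their median was -0.39. The 34 without such a run had -0.39 too. Of the former 22 and of the latter 24 were called lower. The medians of these groups were alike. The split rests on a RefSeq start and on the cut of 8 bases, and some runs lay beside the start without covering it. It therefore does not sort the members by whether their mRNA has a TOP tract.

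The protein chaperones that bind single ribosomal proteins were called lower in 2 of 5 cases (40%), near the 42.1% of all genes at 10 CPM or more. These were Aamp (-0.49 ± 0.0585) and Nap1l1 (-0.36 ± 0.0581). Of 77 tested mitochondrial ribosomal protein genes, which encode a separate ribosome, 53 were called lower and 0 higher (median -0.31). Mrpl24 stood at 161 and 177 CPM in WT and 107 and 113 in KO (-0.62 ± 0.0643). Shares called lower were 73.8% for cytosolic and 68.8% for mitochondrial ribosomal proteins, with the difference between the families not tested.

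Several members carry small nucleolar RNAs in their introns, which are trimmed from the intron after splicing and guide modification of ribosomal RNA. Of 56 such genes inside members 6 passed the filter on low counts. Snord15a in Rps3 had the most reads, 97 and 152 in WT and 57 and 119 in KO, and was not called (0.29 ± 0.243, adjusted p = 0.368). It was the single one whose WT libraries both reached the filter's limit of 0.398 CPM. For genes this limit was set on library sizes without TMM scaling. Snora21 narrowly missed it in WT replicate 2 and would have reached it with TMM scaling. The 3 called higher, where 11.6% of all genes tested were, passed through their KO reads and could not have been tested had these been low, so their number supports nothing. Snora21 in Rpl23 had 14 and 16 reads in WT and 33 and 34 in KO (log2 fold change 1.94 ± 0.423, edgeR adjusted p = 0.00108). AF357399 in Rps16 had 5 and 4 reads in WT and 21 and 17 in KO, and Gm26387 in Rpl5 had 4 and 12 in WT and 18 and 27 in KO. AF357399 lost its call without KO replicate 1 (adjusted p = 0.077) and Gm26387 without KO replicate 2 (adjusted p = 0.091). The host genes Rpl23, Rps16 and Rpl5 were called lower.

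Many promoters give short-lived RNA on the opposite strand (antisense) as well as the mRNA, and the exosome is known to degrade it. The deposited tables hold reads in the 3000 bases upstream of genes, on either strand. They cover 30166 regions, of which 43 belong to members, and 0 of these 43 overlap an annotated gene body on the counted strand. Reads were tested with the library sizes of the gene table, and 39 of the 43 regions could be tested on the antisense strand. Of these 15 were called higher and 0 lower, while 8.56% of all 18281 antisense regions tested were called higher and 0.0875% lower. In 16 of the 39 regions, 5 of the 15 called ones among them (that of Rps7 is one), the WT libraries did not both reach the filter's limit of 0.398 CPM. Those 5 were testable only through their KO reads. Of the 23 regions whose WT libraries both reached it, 10 were called higher. The share of all regions called higher under this same limit was not computed, so this count has no comparison beside it.

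The count of antisense regions called higher depends on how the libraries are scaled. The background, taken as reads per region upstream of untested genes, was 8.11 and 7.59 in WT and 9.04 and 10.2 in KO, although the WT libraries had more gene reads. With the antisense table scaled on itself, 0 members were called higher (0.142% of all regions; 12 members had an unadjusted p under 0.05 in edgeR). With the background subtracted, 7 of 25 testable members were called higher, against 8.71% of all regions. Among these 7 are the regions of Rps7, Rps19 and Rpl37a. Their WT libraries did not both reach the filter's limit after subtraction, so they were testable only through their KO reads. The share of all regions called under that limit was not computed here either. Raw reads were higher in both KO libraries than in both WT libraries in 20 of 43 member regions and in 21.3% of all regions, although fewer gene reads were sequenced in KO.

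The clearest region was that of Rps16, a small-subunit protein. It had 29 and 31 antisense reads in WT and 86 and 91 in KO, which was 3.57 and 4.08 times the background in WT and 9.51 and 8.94 times in KO. Its log2 fold change was 2.35 ± 0.266 (edgeR adjusted p = 0.00034), 2.63 ± 0.284 after subtraction of background (adjusted p = 0.00293) and 1.33 ± 0.322 with the table scaled on itself (adjusted p = 0.0691). Before any scaling, the reads of both KO libraries lay far above those of both WT libraries.

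Rpl37a and Rps20 were also called higher. The region of Rpl37a had 18 and 23 reads in WT and 47 and 54 in KO, and that of Rps20 54 and 61 in WT and 97 and 98 in KO. Both were called with background subtracted as well (edgeR adjusted p = 0.00918 and 0.00732). For Rpl37a the WT libraries did not both reach the filter's limit after subtraction. That region was therefore testable there only through its KO reads. The region of Rps7 had 12 and 6 reads in WT, near the background, and 41 and 38 in KO. The regions of Rpl10l and Rps21 were not called. Upstream of Rpl10l there were 234 and 313 reads in WT and 188 and 210 in KO. On the scale of the gene table these are 7.89 and 8.23 CPM in WT and 10.28 and 10.17 in KO (log2 fold change 0.34 ± 0.166, adjusted p = 0.146), and with the antisense table scaled on itself the sign turned (-0.69 ± 0.276). Upstream of Rps21 there were 137 and 162 reads in WT and 90 and 103 in KO, with a log2 fold change of 0.16 ± 0.198 on the gene scale and -0.86 ± 0.278 on the table's own. The direction of both regions thus depends on the scaling.

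**Figure D4:**
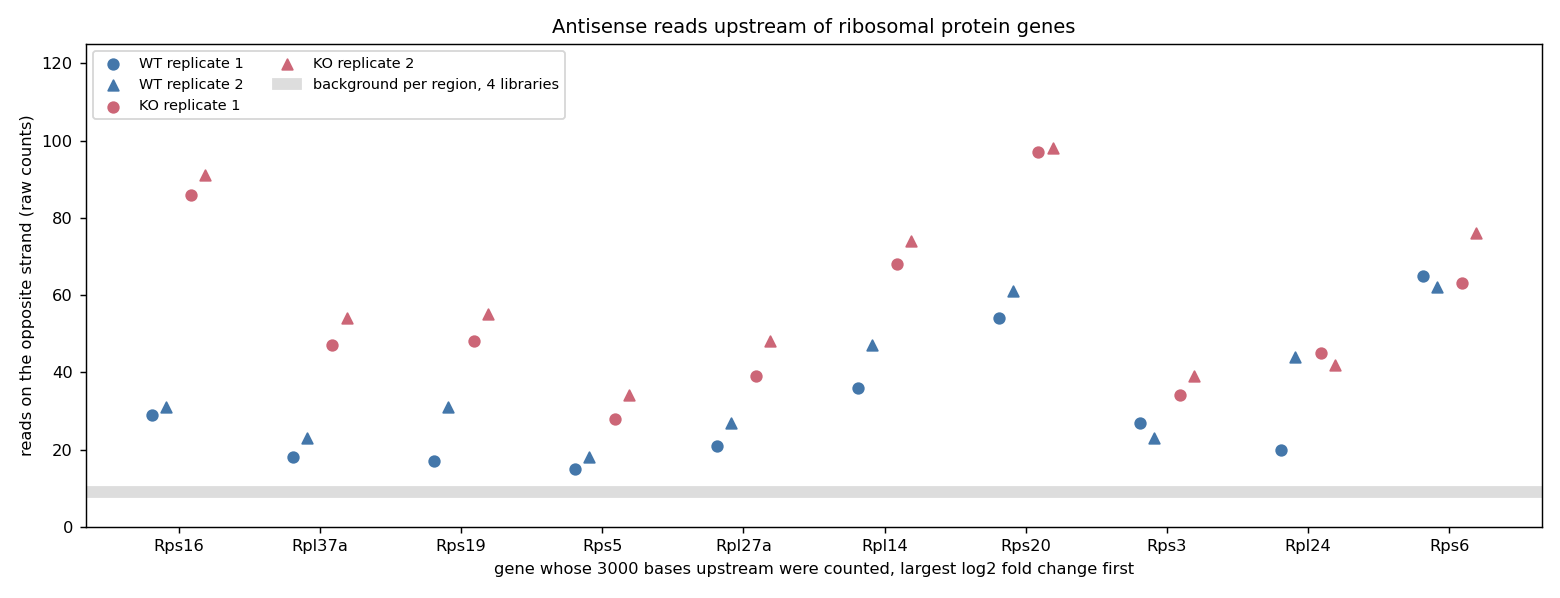
Antisense reads (raw counts, y axis) in the 3000 bases upstream of the 10 members called higher whose WT libraries both reached the filter's limit (x axis, largest log2 fold change first), with 1 point per library and the grey band showing the range of background per region over the 4 libraries. Rps16 rises from 29 and 31 to 86 and 91 reads; for Rps6 and Rpl24 the raw reads of the groups overlap.

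On the strand of the gene no such pattern was found. Of 36 testable member regions 0 were called in either direction (0.0166% of all regions were called higher and 0% lower), and 2 had an unadjusted p under 0.05 in edgeR. In raw reads the KO libraries lay below the WT libraries in 16 of 43 member regions, against 11.6% of all. These reads are not scaled, and the KO libraries had fewer gene reads. On the scale of the gene table the median log2 fold change of the testable member regions was 0.29, against 0.90 over all regions tested. Antisense calls were found beside genes that fell and genes that were not called. Of the 15 regions called higher, 12 belong to genes called lower and 3 to genes not called, and of the 43 members with a region 32 were called lower.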

How the data were processed

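The values are raw read counts per gene and per upstream region, deposited by the authors and per the file headers with featureCounts 1.6.4 and the annotation GENCODE M18. Reads were counted by strand, and no option that keeps reads mapping to several places is recorded there. Also named, in the submitters' processing notes, are the build GRCm38.p5, HISAT2 and cutadapt. Symbols and coding sequences came from the GENCODE annotation of the reference files, and promoters from RefSeq (GRCm38.p6). Protein sequences were not used here.

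The test was edgeR 4.0.16 under R 4.3.3 (filterByExpr, which asks for about 10 reads in 2 libraries, TMM, robust quasi-likelihood fit with genotype as the single term, Benjamini-Hochberg adjustment over all genes or regions tested, threshold 0.05). TMM factors were 0.955 and 0.943 in WT and 1.03 and 1.07 in KO. SEs were derived from the F statistic, as the log2 fold change over its root. RPKM are CPM per kilobase of merged exons. Ratios and shares were compared by exact permutation over 6 relabellings. Background was a trimmed mean (0.25 trimmed from either tail) over the regions upstream of autosomal genes that did not pass the filter, and was 1.08% and 0.777% of gene reads in WT and 2.12% and 2.19% in KO when spread over gene lengths. The fit was run on simulated counts with the same dispersion for every gene, which checks the code and not the calls of the members.

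The members, lists and tests were chosen with earlier results of these data known. Named genes are the paralogs and their parents, X-linked members, the stalk genes and Rpsa, the 6 largest changes each way among called members, and the 4 highest and 4 lowest per length among conserved members. Of the other lists the named genes are the ribosome components outside the symbol rule, of which 1 is not reported here, or up to 3 with the smallest p. Rps9, Rpl26, Rpl37, Rpl13, Vim, Snord15a, the antisense regions and the genes with shown starts were chosen after their values were seen. The settings also tried were median-of-ratios scaling, DESeq2 1.42.0, other filters, a replicate block, each library left out, scaling to Sertoli cell genes and background subtraction. Subtraction for upstream regions and 2 restrictions of the members were added after seeing the data.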

Additional observations from a re-analysis of the deposited data

How the results depend on the processing

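Between 45 (background subtracted, TMM redone) and 68 (scaling to Sertoli cell genes) ribosomal protein genes were called lower over the settings tried, and leaving out each library gave 57 to 63. DESeq2 called 59 lower and 0 higher. The count of genes called higher was 2 with a filter of 1 CPM in 2 libraries and 2 with background subtracted and TMM redone, and 0 otherwise. The median of the members was between -0.26 and -0.49. None of these settings used the library sizes without further scaling. Scaling to Sertoli cell genes moved the median of all genes by -0.12 and background subtraction with TMM redone by 0.10, and relative to all genes the members stood at -0.43 and -0.26 there, against -0.43 in the fit reported.

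The replicate numbers of the labels do not state a shared animal or batch, and same-numbered libraries deviated together with a correlation of 0.13 over 11314 genes. With the number as a replicate block 65 members were called lower, 0 higher, and 19 antisense regions were called higher. In the fit relative to the family, the block gave -0.47 for Rpl39l and -0.19 for Rpl10l.

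Antisense regions called higher numbered 0 with the table scaled on itself, 7 with background subtracted, and between 7 (without KO replicate 2) and 20 (without WT replicate 1) when libraries were left out. On the sense strand 1 region was called higher without WT replicate 1. The 5 members below 10 CPM had SEs from 0.143 to 0.536 on the log2 scale, and changes larger than 1 SE also went uncalled, such as that of Rps2 (-0.32 ± 0.143, adjusted p = 0.089).

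Rpl10 changed sign without a filter (-0.0166), with Sertoli scaling (-0.0611) and when libraries were left out, which gave values from -0.0960 (without KO replicate 2) to 0.117 (without KO replicate 1). Rps4x did so without a filter (-0.0288), with Sertoli scaling (-0.0725) and when libraries were left out, with values from -0.179 (without KO replicate 2) to 0.162 (without KO replicate 1). Rpl36a (0.0357) and Rpl7l1 (0.0618) did so with background subtracted and TMM redone, and Rpl7l1 also with the 1 CPM filter (0.0029). The cause of these changes was not tested. For single named genes, 542 values kept direction and call, 12 gained a call, 7 lost it and 10 changed sign.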
